A study of Arabidopsis thaliana with 18 samples.

Results

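The JAZ repressor genes of Arabidopsis were followed through 18 polyA RNA-Seq libraries. The 10 members were JAZ1 (AT1G19180), JAZ2 (AT1G74950), JAZ3 (AT3G17860), JAZ5 (AT1G17380), JAZ6 (AT1G72450), JAZ7 (AT2G34600), JAZ8 (AT1G30135), JAZ9 (AT1G70700), JAZ10 (AT5G13220) and JAZ12 (AT5G20900), picked by locus ID from a table of 27371 genes, and all 10 were present in it. All plants were Col-0, germinated for 5 days, then kept for 16 days on 100 mM NaCl and harvested at 21 days of age, so salt was common to every group including the controls. Shoots came from plants given nothing else (WT), from plants colonised by the Enterobacter endophyte SA187, and from plants given 100 nM KMBA or 100 nM ACC. Roots came from the KMBA and ACC plants, and each of the 6 groups held 3 libraries, which the study's methods call biological replicates. KMBA is a keto acid made from methionine that bacteria can release, and ACC is the immediate precursor of ethylene in plants. The comparisons ask whether the bacterium, the bacterial metabolite and the ethylene precursor act alike on the salt-stressed plant, here on the repressors of jasmonate signaling. Roots of WT and SA187 plants were not analysed here.

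JAZ proteins hold jasmonate responses in check. They bind MYC2 and related bHLH transcription factors and, through the adaptor NINJA or through an EAR motif of their own, bring in the co-repressor TOPLESS. When the hormone jasmonoyl-isoleucine accumulates, for example after wounding, it joins JAZ proteins to the F-box receptor COI1, the JAZ proteins are degraded and the MYC factors become active. Most JAZ genes are themselves switched on by MYC factors, so their transcripts are widely read as early markers of jasmonate signaling and form a negative feedback. JAZ1, JAZ3 and JAZ9 proteins also bind the ethylene factors EIN3 and EIL1, where the jasmonate and ethylene pathways meet.

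The members lie on chromosomes 1, 2, 3 and 5 of TAIR10.1, for example JAZ7 at chr2:14573030-14573952 on the plus strand, JAZ6 at chr1:27273968-27276562 on the minus strand and JAZ9 at chr1:26654529-26657350 on the plus strand. MYC factors recognise the G-box CACGTG and the related T/G-box AACGTG (reverse complement CACGTT), and ethylene response factors recognise the GCC-box GCCGCC. In the window from 250 bases before to 50 bases after the annotated gene start, searched on both strands, the G-box occurred in 4 of 9 members searched (JAZ2, JAZ3, JAZ7 and JAZ8) and in 7.68% of 27443 protein-coding genes. The T/G-box occurred in 4 of 9 members searched (JAZ3, JAZ5, JAZ6 and JAZ12) and in 8.95% of all genes, whereas the GCC-box occurred in 0 of 9 and in 2.57% of all genes. These are matches of letters and do not show binding. The 250 bases upstream of 4 members are shown because these members differ in the results that follow: JAZ6 and JAZ7 were low in KMBA and ACC shoots, and JAZ3 and JAZ9 were not low in KMBA shoots. Sequences are from the RefSeq TAIR10.1 genome, written 5′ to 3′ on the gene's strand and ending at the base before the gene start, with G-box and T/G-box matches in capitals.
JAZ7 (chr2:14572780-14573029): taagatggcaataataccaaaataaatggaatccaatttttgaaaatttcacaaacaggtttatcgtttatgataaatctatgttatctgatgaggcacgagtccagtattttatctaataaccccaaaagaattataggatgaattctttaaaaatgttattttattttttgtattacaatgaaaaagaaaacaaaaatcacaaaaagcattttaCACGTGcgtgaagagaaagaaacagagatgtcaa
JAZ6 (chr1:27276563-27276812): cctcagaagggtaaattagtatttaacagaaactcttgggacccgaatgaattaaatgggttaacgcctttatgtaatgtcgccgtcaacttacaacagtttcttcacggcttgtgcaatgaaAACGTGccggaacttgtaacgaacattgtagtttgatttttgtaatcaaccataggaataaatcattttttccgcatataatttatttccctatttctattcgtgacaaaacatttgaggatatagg
JAZ3 (chr3:6119457-6119706): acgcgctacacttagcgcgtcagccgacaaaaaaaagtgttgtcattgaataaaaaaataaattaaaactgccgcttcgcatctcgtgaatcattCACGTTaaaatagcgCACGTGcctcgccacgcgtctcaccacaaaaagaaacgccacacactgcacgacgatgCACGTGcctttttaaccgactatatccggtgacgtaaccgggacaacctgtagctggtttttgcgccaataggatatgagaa
JAZ9 (chr1:26654279-26654528): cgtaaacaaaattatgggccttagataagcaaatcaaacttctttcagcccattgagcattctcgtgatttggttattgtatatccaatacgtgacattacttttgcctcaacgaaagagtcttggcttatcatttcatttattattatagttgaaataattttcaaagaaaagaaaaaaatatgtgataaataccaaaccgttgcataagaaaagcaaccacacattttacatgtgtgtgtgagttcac
In JAZ7 the G-box began 34 bases before the gene start. JAZ6 held 1 T/G-box, beginning 127 bases before the start. JAZ3 held 3 matches, with G-boxes at 140 and 82 bases and a T/G-box at 155 bases before the start. JAZ9 held no match in this window.

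Expression was given as FPKM, fragments counted per unit of transcript length and of sequencing depth, which corrects for transcript length and so allows levels to be set side by side between genes. The number of reads behind a value is unknown. Marker transcripts matched the organ labels: the summed FPKM of 8 root markers was 0.0787 to 0.399 in shoots and 274 to 356 in roots, and that of 8 green-tissue markers was 19110 to 28330 in shoots and 531 to 911 in roots. WT replicates 1 and 3 stood apart from the other shoot libraries. The slope of their log2 deviations on log2 transcript length was -0.116 and -0.371, against -0.0436 to 0.109 in the other 10 shoot libraries, so each result against WT was also computed with WT replicate 2 as the only control.

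The summed level of the 10 JAZ genes was highest in WT and SA187 shoots and lowest in roots. It was 179.3 ± 17.5 FPKM in WT shoots (SD, n = 3, as for all means here), 173.0 ± 29.6 in SA187 shoots, 113.5 ± 30.2 in KMBA shoots and 78.7 ± 3.10 in ACC shoots. In roots it was 61.4 ± 9.59 with KMBA and 49.7 ± 4.88 with ACC. The WT and SA187 libraries overlapped, as did the libraries of both root groups, while the 3 ACC shoot libraries lay between 75.7 and 81.9 FPKM. JAZ6 had the highest mean of the members in all 4 shoot groups, at 39.2% of the sum in WT, 39.0% in SA187 and 33.3% in KMBA shoots. In ACC shoots, where their libraries overlapped, JAZ6 made up 28.04% and JAZ1 27.3%. JAZ1 was the most abundant member in roots, at 44.8% of the sum with KMBA and 42.4% with ACC. JAZ8 was the lowest member, at or below 1.12 FPKM in all 18 libraries, and did not pass the expression filter of at least 1 FPKM in at least 3 libraries in any test. In bulk tissue, fewer cells that express a gene and less transcript per cell cannot be told apart.

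**Figure D1:**
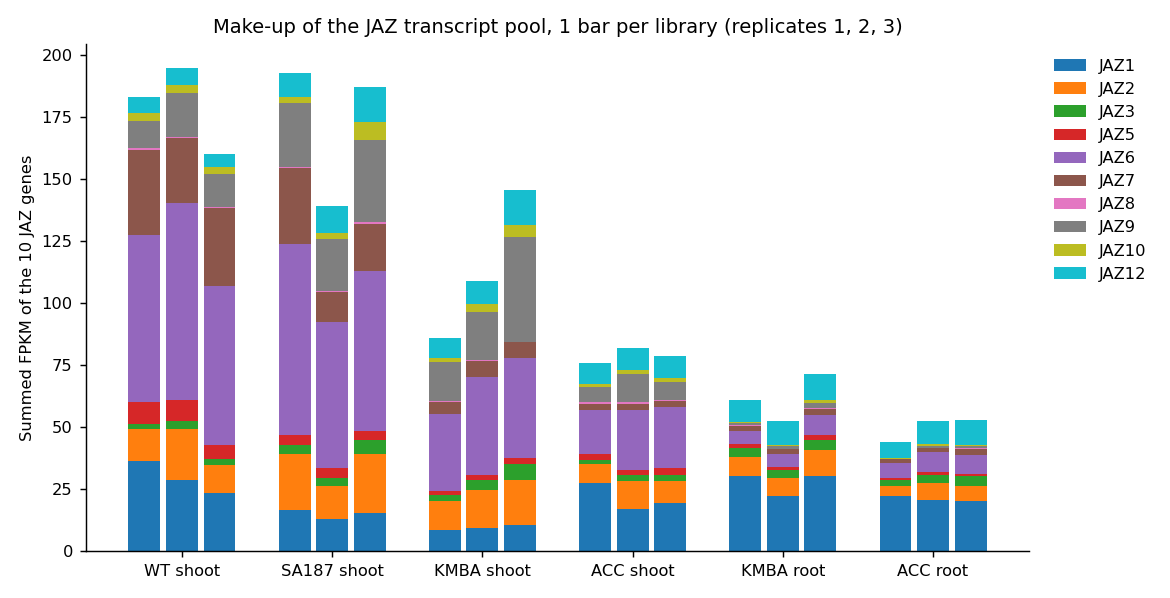
Stacked bars give the FPKM of each of the 10 JAZ genes in each library (vertical axis, summed FPKM; horizontal axis, the 6 groups with replicates 1 to 3 from left to right). The purple JAZ6 and brown JAZ7 blocks shrink from WT to ACC shoots, where the sums lie between 75.7 and 81.9 FPKM, and JAZ1 in blue makes up 44.8% and 42.4% of the sums in the KMBA and ACC roots.

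**Figure D2:**
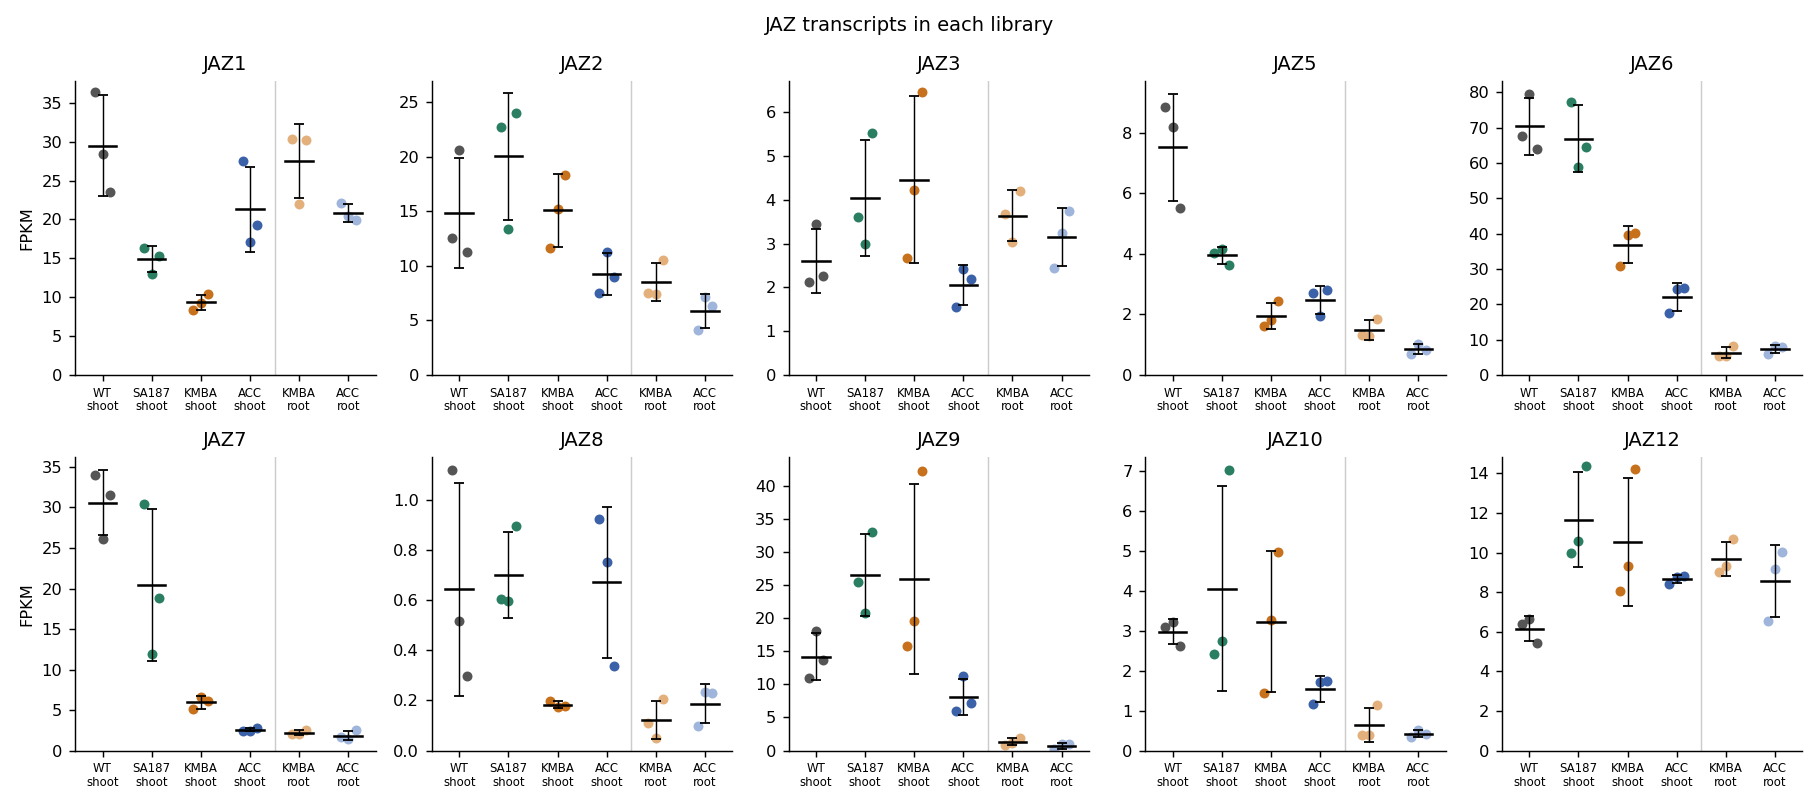
Each panel gives 1 JAZ gene (vertical axis, FPKM, scaled per gene and starting at 0; horizontal axis, the 6 groups). Points are libraries in the order of replicates 1 to 3, bars are means and whiskers 1 SD (n = 3); JAZ7 stands at 26.2 to 34.0 FPKM in WT shoots and at 2.41 to 2.77 in ACC shoots.

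The first comparisons set each treated shoot against the WT shoots, which all 3 comparisons share. A gene was called at a Benjamini-Hochberg adjusted p under 0.05 over all tested genes and a fold over 2 in limma, with differences on the log2(FPKM + 1) scale, which understates changes of low genes. Of 9 members tested, 0 were called in SA187 shoots, where 1.62% of 15724 genes were called. At an unadjusted p under 0.05 there were 5 members and 4125 genes. KMBA lowered 3 members (JAZ1, JAZ5 and JAZ7), with 2.43% of all genes called lower. ACC lowered 3 members (JAZ5, JAZ6 and JAZ7), with 2.91% of all genes called lower. No member was called higher in any of the 3. The median log2 difference of the 9 members was 0.23 with SA187, -0.003 with KMBA and -0.65 with ACC, beside medians over all genes of -0.02, 0.002 and 0.06.

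JAZ7, a small JAZ protein that lacks the usual hormone-dependent degron and carries an EAR motif, showed the largest differences from WT of the 9 members with KMBA and with ACC. Its level was 34.0, 26.2 and 31.5 FPKM in WT shoots, 30.5, 11.9 and 18.9 in SA187 shoots, 5.09, 6.58 and 6.18 in KMBA shoots and 2.47, 2.41 and 2.77 in ACC shoots. The KMBA and ACC libraries lay below every WT and SA187 library and did not overlap each other, whereas SA187 overlapped WT. Against WT, JAZ7 was 4.54-fold lower with KMBA (log2 -2.18, SE 0.25, adjusted p = 0.00208) and 8.85-fold lower with ACC (log2 -3.15, SE 0.25, adjusted p = 3.66e-05). With SA187 the log2 difference was -0.65 (SE 0.25, adjusted p = 0.125).

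JAZ5 and JAZ6 are close relatives that also carry EAR motifs. JAZ5 stood at 8.85, 8.19 and 5.52 FPKM in WT shoots, 4.04, 4.17 and 3.64 with SA187, 1.62, 1.82 and 2.43 with KMBA and 2.70, 1.95 and 2.80 with ACC. All 9 treated libraries were below the 3 WT libraries, and the KMBA and ACC libraries overlapped. The log2 difference of JAZ5 was -1.51 (SE 0.17, adjusted p = 0.00208) with KMBA and -1.28 (SE 0.17, adjusted p = 0.00043) with ACC. JAZ6 stood at 67.6, 79.5 and 64.1 FPKM in WT shoots, 77.3, 58.8 and 64.5 with SA187, 30.8, 39.7 and 40.3 with KMBA and 17.5, 24.3 and 24.6 with ACC. SA187 overlapped WT, and the KMBA and ACC libraries lay below both and apart from each other. JAZ6 was 3.11-fold lower with ACC (log2 -1.64, SE 0.17, adjusted p = 0.00014). With KMBA it was 1.89-fold lower, under the fold threshold (log2 -0.92, SE 0.17, adjusted p = 0.0069).

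JAZ1, a founding member of the family and a MYC2 and EIN3 partner, was called lower with KMBA only. It stood at 36.4, 28.5 and 23.5 FPKM in WT shoots, 16.3, 13.0 and 15.3 with SA187, 8.41, 9.19 and 10.4 with KMBA and 27.5, 17.1 and 19.3 with ACC. The SA187 and KMBA libraries lay below all WT libraries, while ACC replicate 1 lay within the WT range. JAZ1 was 2.92-fold lower with KMBA (log2 -1.54, SE 0.19, adjusted p = 0.00208). With ACC the log2 difference was -0.46 (SE 0.19, adjusted p = 0.0786). With SA187 JAZ1 was 1.90-fold lower at adjusted p = 0.0237, and leaving out WT replicate 3 gave a log2 difference of -1.07 and a call.

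The other 5 tested members were not called against WT. JAZ12, whose protein is a substrate of the ubiquitin ligase KEEP ON GOING, stood at 6.38, 6.64 and 5.43 FPKM in WT shoots, 9.97, 10.6 and 14.4 with SA187, 8.08, 9.32 and 14.2 with KMBA and 8.42, 8.77 and 8.80 with ACC. Every treated library was above the WT libraries, but the folds were 1.75 (adjusted p = 0.0287), 1.58 (adjusted p = 0.0283) and 1.35 (adjusted p = 0.0819), under the fold threshold. JAZ9 had log2 differences of 0.85 with SA187 (adjusted p = 0.128), 0.72 with KMBA (adjusted p = 0.129) and -0.76 with ACC (adjusted p = 0.0934). JAZ2, which acts in guard cells, JAZ3, named for the dominant jai3 mutant, and JAZ10, known for splice forms that escape degradation, had log2 differences between -0.65 and 0.56, with adjusted p from 0.0939 to 0.995. JAZ3 was low throughout, at 1.55 to 6.47 FPKM, and JAZ10 at 1.16 to 7.01 in shoots.

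**Figure D3:**
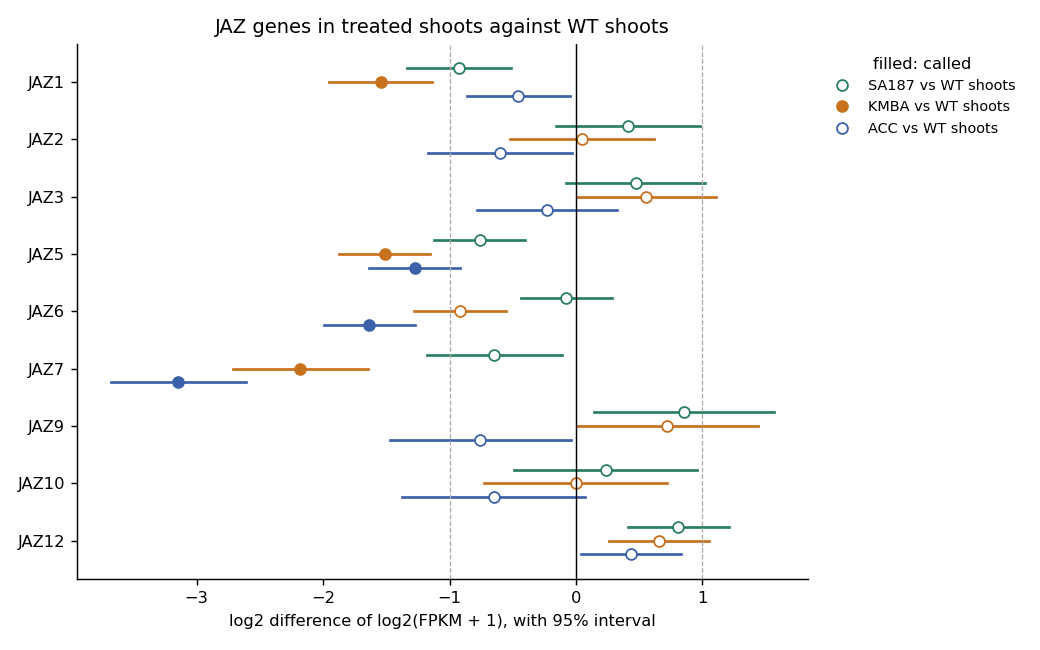
Points are log2 differences on the log2(FPKM + 1) scale (horizontal axis) of 9 JAZ genes (vertical axis) in SA187, KMBA and ACC shoots against WT shoots, with 95% intervals; filled points were called and dashed lines mark a fold of 2. JAZ7 lies farthest to the left, at -2.18 with KMBA and -3.15 with ACC, and JAZ12 lies to the right of 0 in all 3 comparisons.

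The comparisons with WT were also computed without WT replicates 1 and 3, an alternative chosen after seeing the data. The control arm was then 1 library, assumed to vary like the other groups, so these fits give no check on the spread between controls. With WT replicate 2 as the only control, JAZ1, JAZ5 and JAZ7 were called with KMBA (log2 -1.52, -1.64 and -1.97) and JAZ5, JAZ6 and JAZ7 with ACC (log2 -1.41, -1.81 and -2.94), together with JAZ2 (log2 -1.09, adjusted p = 0.0475). Some early wound and touch response genes also differed from WT. Of 10 such genes, 0 were called higher against WT and 2, 5 and 4 lower with SA187, KMBA and ACC, where 1.38%, 2.43% and 2.91% of all genes were called lower. Those not called did not all lie below WT, and 1, 0 and 3 of the 10 had log2 differences above 0. Their summed level was 1094 to 2547 FPKM in WT shoots and 472 to 821 in the other shoots, and TCH2, a touch-induced calmodulin-like gene, fell by 1.75, 2.32 and 2.59 on the log2 scale. The part of this in the JAZ results was not tested. All WT and SA187 libraries were in sequencing pool 1, while KMBA replicate 3 and ACC replicates 2 and 3 were in pool 3. With the libraries of pool 1 alone, 3 members were called lower with KMBA, beside 77 of all genes called lower. ACC then had 1 library, so its calls in pool 1 are not counted here.

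The treated shoots were next compared with each other, which asks whether KMBA and ACC plants resembled SA187 plants. Between KMBA and SA187 shoots, 0 of 9 members were called, and 0% of all genes were called in limma. At an unadjusted p under 0.05 the comparison held 4 of 9 members and 741 of 15724 genes. These 4 members were JAZ7 (log2 -1.54, 95% interval -2.07 to -1.002), JAZ6 (log2 -0.84, 95% interval -1.20 to -0.48), JAZ5 (log2 -0.75) and JAZ1 (log2 -0.62). All 4 had KMBA libraries below every SA187 library, with adjusted p between 0.331 and 0.908. They were picked by their p, and the share of all genes without overlap was not computed. JAZ7 was called without SA187 replicate 2, its lowest SA187 library (log2 -1.85, adjusted p = 0.0171).

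Against SA187, ACC shoots had 4 of 9 members lower (JAZ2, JAZ6, JAZ7 and JAZ9), with 0.731% of all genes called lower. JAZ7 was 5.66-fold lower (log2 -2.50, SE 0.25, adjusted p = 0.000362) and JAZ6 2.95-fold lower (log2 -1.56, SE 0.17, adjusted p = 0.000451). JAZ9 stood at 25.5, 20.8 and 33.1 FPKM with SA187 and 5.95, 11.2 and 7.13 with ACC, with no overlap. It was 3.05-fold lower (log2 -1.61, SE 0.33, adjusted p = 0.0123), and its adjusted p rose to as much as 0.0602 when SA187 replicate 1 or ACC replicate 1 was left out. JAZ2 stood at 22.7, 13.3 and 24.01 FPKM with SA187 and 7.46, 11.2 and 8.95 with ACC. Its fold of 2.02 was just past the threshold (adjusted p = 0.0335), and the call was lost without SA187 replicate 1 or 3 or ACC replicate 1 or 3.

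Between ACC and KMBA shoots, 1 member was higher with ACC (JAZ1) and 1 lower (JAZ9), with 0.502% of all genes called higher and 0.293% lower. JAZ1 was 2.13-fold higher with ACC (log2 1.09, SE 0.19, adjusted p = 0.0122), and its KMBA libraries at 8.41 to 10.4 FPKM lay below the ACC libraries at 17.1 to 27.5. JAZ9 stood at 15.9, 19.5 and 42.2 FPKM with KMBA, where replicate 3 was far above the other two, and was 2.79-fold lower with ACC (log2 -1.48, SE 0.33, adjusted p = 0.0396). Without KMBA replicate 3 the log2 difference of JAZ9 was -1.07 and its call was lost, as it was without KMBA replicate 2 or ACC replicate 1 or 3. The JAZ1 call was lost without ACC replicate 1 or KMBA replicate 1 or 2, at adjusted p up to 0.0582. Within sequencing pool 1, where ACC had 1 library, the log2 differences were 1.54 for JAZ1 and -1.42 for JAZ9. JAZ6 (log2 -0.72, adjusted p = 0.046) and JAZ7 (log2 -0.96, adjusted p = 0.0659) were also lower in every ACC library than in every KMBA library, with folds of 1.64 and 1.95.

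**Figure D4:**
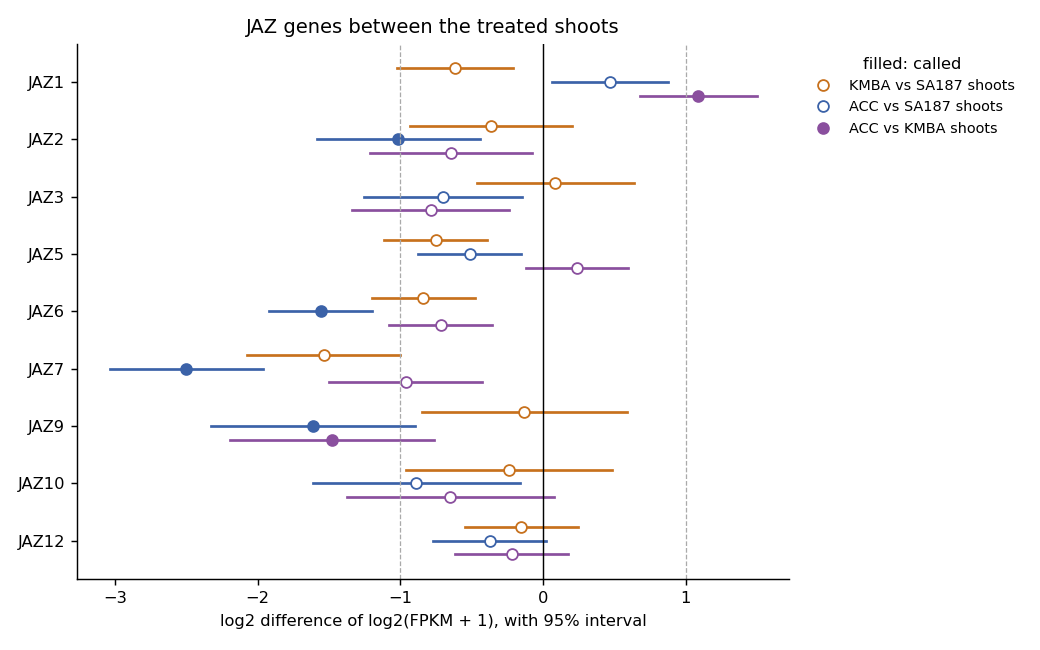
Log2 differences on the log2(FPKM + 1) scale (horizontal axis) with 95% intervals for 9 JAZ genes (vertical axis) between the treated shoot groups; filled points were called and dashed lines mark a fold of 2. JAZ7 lies left of 0 in all 3 comparisons, and JAZ1 lies to the right of 0 in ACC against KMBA shoots (1.09).

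ACC and KMBA roots were compared next. Of 7 members that passed the expression filter, 0 were called by limma, beside 1.26% of 17169 genes. At an unadjusted p under 0.05 there were 3 members and 5522 genes. JAZ5 stood at 0.703, 1.04 and 0.836 FPKM with ACC and 1.32, 1.28 and 1.86 with KMBA (log2 -0.42, adjusted p = 0.0498), a fold of 1.33. JAZ1 stood at 22.2, 20.4 and 20.0 FPKM with ACC and 30.4, 22.0 and 30.2 with KMBA (log2 -0.37, 95% interval -0.67 to -0.07, adjusted p = 0.0906). JAZ9 and JAZ10 did not pass the filter in roots, at 0.200 to 1.90 and 0.345 to 1.14 FPKM. All ACC roots were in sequencing pool 4 and all KMBA roots in pool 2, so compound and pool cannot be told apart in this comparison.

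Roots and shoots of the same treatment differed in the levels of several JAZ genes. With ACC, 2 of 9 members were lower in roots (JAZ6 and JAZ9), with 13.9% of 18357 genes called lower. With KMBA, 4 of 9 were lower (JAZ6, JAZ7, JAZ9 and JAZ10), with 13.5% of all genes called lower. In the same comparison 1 was higher (JAZ1), with 24.7% called higher. JAZ9 and JAZ10 did not pass the expression filter in roots alone and entered this fit through their shoot libraries. Their calls as lower in roots are therefore not independent of the filter. JAZ9 stood at 0.842, 1.22 and 1.90 FPKM in KMBA roots against 15.9 to 42.2 in KMBA shoots, a 10.8-fold difference on the test's scale (log2 -3.43, SE 0.33, adjusted p = 8.26e-07). With ACC it was 5.35-fold lower in roots (log2 -2.42, SE 0.33, adjusted p = 2.35e-05). JAZ6 stood at 5.44, 5.47 and 8.09 FPKM in KMBA roots and 5.92, 8.13 and 7.78 in ACC roots, 5.20-fold and 2.79-fold below the shoots. JAZ1 stood higher in KMBA roots, at 22.0 to 30.4 FPKM, than in KMBA shoots, at 8.41 to 10.4 FPKM (log2 1.46, SE 0.16, adjusted p = 3.25e-06), and with ACC roots and shoots overlapped (log2 -0.004, SE 0.16). JAZ12 had log2 differences between the organs of -0.08 with KMBA (95% interval -0.46 to 0.31) and -0.03 with ACC (95% interval -0.41 to 0.35).

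The median log2 difference of all genes between roots and shoots was 0.37 with ACC and 0.40 with KMBA. Median-ratio scaling brought these to 0.01 in both and the all-gene calls from 4537 higher and 2477 lower to 3325 and 3183 with KMBA, and from 4165 and 2553 to 3027 and 3169 with ACC. On that scale JAZ12 was -0.52 with KMBA and -0.41 with ACC, JAZ1 was 1.00 with KMBA and -0.41 with ACC, and JAZ5 (log2 -1.14) and JAZ10 (adjusted p = 0.00291) were also called lower in ACC roots. After subtraction of a trend with transcript length and GC content, also chosen after seeing the data, JAZ1 was at 0.98 in KMBA roots against shoots, just under the fold threshold. Organ and sequencing pool were also confounded, since no shoot library was in pool 2 or pool 4.

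The difference between ACC and KMBA depended on the organ for 4 of 9 members, tested as an interaction at adjusted p under 0.05 alone. This count fell to 1 (JAZ1) with a pseudocount of 0.1 and to 2 (JAZ1 and JAZ7) without the expression filter. JAZ6 and JAZ7 were higher in this contrast, with 2.93% of all genes higher, and JAZ1 and JAZ5 lower, with 7.4% of all genes lower. For JAZ1 the ACC minus KMBA difference was 1.46 lower in roots than in shoots on the log2 scale (log2 -1.46, SE 0.23, adjusted p = 0.00248), and the organs' own differences were 1.09 in shoots and -0.37 in roots. For JAZ7 the interaction was 0.78 (SE 0.19, adjusted p = 0.0236), for JAZ6 0.90 (SE 0.25, adjusted p = 0.0378) and for JAZ5 -0.65 (SE 0.19, adjusted p = 0.048). JAZ1 kept its call whichever library was left out, whereas the calls of JAZ5, JAZ6 and JAZ7 were lost in 10, 7 and 4 of 12 such fits.

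**Figure D5:**
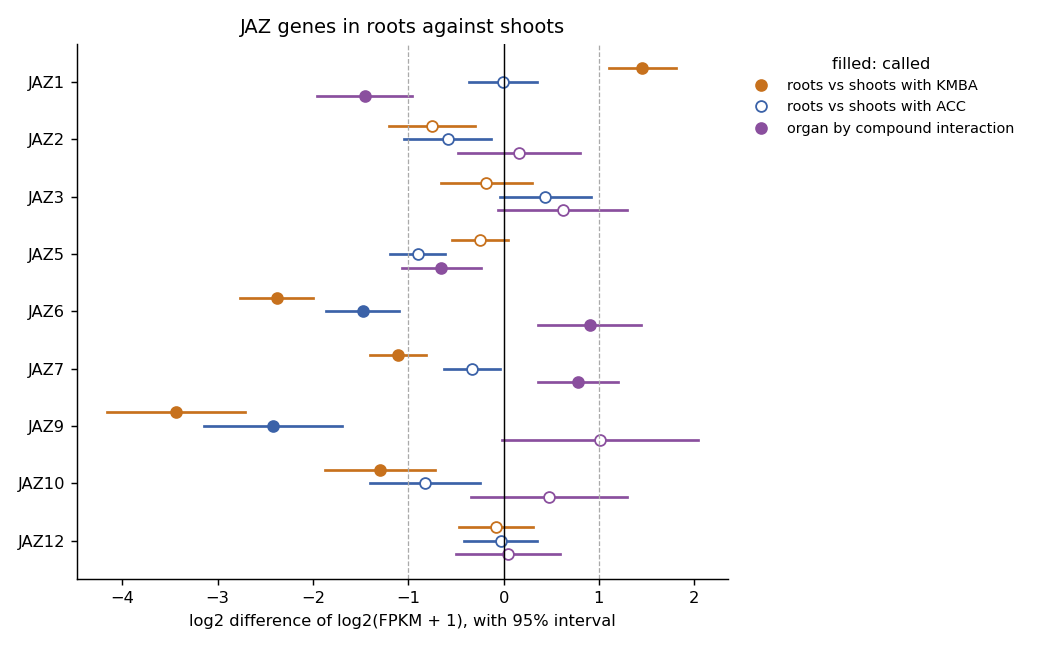
Log2 differences on the log2(FPKM + 1) scale (horizontal axis) with 95% intervals for 9 JAZ genes (vertical axis): roots against shoots with KMBA, the same with ACC, and the interaction, which is ACC minus KMBA in roots less ACC minus KMBA in shoots. Filled points were called; JAZ1 stands at 1.46 with KMBA and near 0 with ACC, and JAZ9 at -3.43 and -2.42.

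Other genes of the pathway placed the JAZ values in context. Their lists came from general knowledge but were chosen with earlier results of these data known. Of 8 perception and co-repression genes, all 8 were tested and 0 were called in any of the 6 shoot comparisons. Calls were few over all 15724 genes too. There were 254, 485 and 769 against WT with SA187, KMBA and ACC. KMBA against SA187 had 0, ACC against SA187 279 and ACC against KMBA 125. At an unadjusted p under 0.05 there were 1, 3 and 4 of them against WT with SA187, KMBA and ACC. Over all genes the same limit held 4125, 5922 and 7119 of 15724. COI1, the receptor, stood at 6.86 ± 1.17 FPKM in WT shoots, 7.01 ± 0.06 with SA187, 7.42 ± 0.14 with KMBA and 8.61 ± 0.59 with ACC. NINJA, the adaptor, stood at 16.7 ± 2.203, 19.0 ± 0.92, 17.4 ± 0.15 and 19.1 ± 0.17 FPKM in the same order. Their log2 differences against WT ran from 0.04 to 0.30, with adjusted p from 0.0567 to 0.855. Of 7 bHLH factors bound by JAZ proteins, 0 were called in the shoots, beside the all-gene calls given above. At an unadjusted p under 0.05 against WT there were 2, 2 and 3, beside the same all-gene counts at that limit. MYC2 stood at 27.2 ± 8.54 FPKM in WT, 39.4 ± 6.43 with SA187, 20.1 ± 4.07 with KMBA and 19.6 ± 2.19 with ACC. In roots MYC2 was at 56.2 ± 5.97 FPKM with KMBA and 43.4 ± 1.23 with ACC, above the shoots by 1.45 and 1.11 on the log2 scale (adjusted p = 6.04e-07 and 8.14e-06). The 7 bHLH factors did not all go this way: 5 lay above the shoots and 2 below with each compound. With KMBA 2 were called higher and 2 lower in roots, beside 4537 and 2477 of 18357 genes. With ACC 1 was called higher and 1 lower, beside 4165 and 2553.

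Hormone synthesis genes separated ACC shoots from SA187 and KMBA shoots. Of 14 synthesis genes tested, 3 were higher and 1 lower than WT with SA187, 3 higher and 1 lower with KMBA, and 0 higher and 1 lower with ACC. The shares of all genes called higher in these comparisons were 0.235%, 0.655% and 1.98%, beside the 1.38%, 2.43% and 2.91% called lower. LOX3, a lipoxygenase of the first step, stood at 16.3 ± 12.5 FPKM in WT, 50.2 ± 6.16 with SA187, 46.7 ± 11.98 with KMBA and 9.93 ± 3.04 with ACC. JAR1, which joins jasmonate to isoleucine, stood at 17.1 ± 6.81, 36.9 ± 4.14, 48.5 ± 8.83 and 19.0 ± 4.69 FPKM. The WT libraries varied widely in both genes, and SA187 and KMBA libraries were above all of them. Between ACC and KMBA shoots, 0 of 14 were higher and 6 lower, with 0.502% of all genes called higher and 0.293% lower. Among the 6 were OPR3 (log2 -1.60), JAR1 (log2 -1.31), LOX3 (log2 -2.13) and AOS (log2 -1.30). Between ACC and SA187 shoots 0 were higher and 7 lower, with 0.731% of all genes called lower. The median log2 difference of the 14 was -0.97, beside 0.09 over all genes. The interaction with organ was higher for 8 of 14, led by LOX3 (log2 2.07, adjusted p = 0.00111), with 2.93% of all genes higher. LOX3 was almost absent from roots, at 0.02 ± 0.004 FPKM with ACC and 0.06 ± 0.04 with KMBA. Its interaction therefore mostly repeats its shoot difference with the sign reversed. LOX2, LOX4 and AOC1 were also under 1 FPKM in every root library.

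In hormone turnover, CYP94C1, which oxidises jasmonoyl-isoleucine, fell in all 3 treatments. It stood at 31.8, 24.8 and 17.9 FPKM in WT shoots, 13.0, 9.40 and 8.79 with SA187, 3.77, 5.99 and 5.55 with KMBA and 6.37, 7.30 and 3.60 with ACC, with no treated library as high as any WT library. Its log2 differences were -1.17, -2.07 and -1.94. Of the 7 turnover genes tested, 1 was called lower in each comparison, beside 1.38%, 2.43% and 2.91% of all genes. The list as a whole did not follow CYP94C1 with SA187 or KMBA. Log2 differences were above 0 for 6, 6 and 3 of the 7 with SA187, KMBA and ACC. The medians of the 7 were 0.86, 0.84 and -0.31. Of 7 turnover genes tested, 1 was called higher with each of SA187, KMBA and ACC against WT, beside 0.235%, 0.655% and 1.98% of all genes. These were IAR3, an amidohydrolase, with SA187 (log2 1.37) and JOX4, a jasmonate oxidase, with KMBA (log2 1.84). With ACC it was CYP94B3, a further oxidase of the hormone (log2 1.00), at 0.14 ± 0.16 FPKM in WT and 1.28 ± 0.30 in ACC shoots. No WT library reached 1 FPKM for CYP94B3, so it passed the filter through treated libraries only. Of 9 response genes, 0 were called with SA187 or KMBA. At an unadjusted p under 0.05 there were 1 and 0, beside 4125 and 5922 of 15724 genes. With ACC, ORA59, an ERF factor of the joint jasmonate and ethylene branch, rose from 0.43 ± 0.11 to 3.03 ± 0.96 FPKM (log2 1.47, adjusted p = 0.000436) and VSP1, a vegetative storage protein of the MYC branch, fell by 1.02 on the log2 scale (adjusted p = 0.0243). For ORA59, too, no WT library reached 1 FPKM, so it passed the filter in shoots through treated libraries only. In roots, ORA59 was at 39.7 ± 3.96 FPKM with ACC and 11.8 ± 2.33 with KMBA (log2 1.68, adjusted p = 0.000868). Among 6 other TIFY genes, JAZ4 was at 1.02 to 1.26 FPKM in ACC roots and 1.46 to 1.91 in KMBA roots, and at most 0.141 in any shoot library.

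In some groups 1 library was the highest or the lowest for most members. In KMBA shoots replicate 3 was the highest library for 8 of 10 members and replicate 1 the lowest for 9 of 10, and replicate 3 was also the KMBA shoot library of pool 3. In KMBA roots replicate 3 was the highest for 9 of 10. In SA187 shoots replicate 3 was the highest for 6 of 10 (JAZ2, JAZ3, JAZ8, JAZ9, JAZ10 and JAZ12) and replicate 2 the lowest for 7 of 10. Members split more evenly in ACC shoots, where replicates 1, 2 and 3 were the highest for 2, 3 and 5. Deviations of shoot libraries from their group means correlated between members at r from -0.124 (JAZ1 and JAZ6) to 0.918 (JAZ3 and JAZ9). The same counts over all genes were not made, so shifts of a whole library and of the family cannot be told apart. The 6 genes outside the lists whose levels over the 12 shoot libraries were most like the mean of 9 standardised JAZ profiles were AT1G61890 (Pearson r = 0.91), AT5G20190 (r = 0.904), AT1G53903 (r = 0.897), VTC5 (AT5G55120, r = 0.883), AT1G53885 (r = 0.882) and AT2G32150 (r = 0.881). They were ranked among 7667 genes whose shoot mean reached 5 FPKM, and over the 9 shoot libraries other than WT r ran from 0.857 to 0.921. The 12 libraries share group differences, so these values describe likeness only.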

How the data were processed

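The authors sequenced polyA RNA of 12 shoot and 6 root libraries on an Illumina HiSeq, and the labels name FastQC 0.11.5, Trimmomatic 0.36, TopHat, featureCounts 1.5.1 and Cufflinks 2.2.1 with the TAIR10 genome. The deposited FPKM values, made by the authors with Cufflinks, were used as they are, with 1 value per gene and library and 0 columns left out for want of a sample. Scaling between libraries and the use of strand are not given in the sources used here. FPKM keeps no read numbers, so precision rests on the spread between libraries within groups, pooled over the groups of a fit.

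Tests used limma 3.58.1 (R 4.3.3) after adding a pseudocount of 1 and taking log2, on genes that reached 1 FPKM in 3 or more libraries of the fit (eBayes with a trend, 2-sided, Benjamini-Hochberg over all tested genes) in 3 fits: shoots, roots, and the KMBA and ACC groups of both organs. Calls needed adjusted p under 0.05 and a fold over 2, or adjusted p alone for the interaction. The p-values rest on the spread between libraries within groups, pooled over the groups of a fit and moderated across genes by eBayes. Calls were tested on simulated data. Loci and promoter windows came by locus ID from RefSeq TAIR10.1, and the deposited table carries no coordinates. The promoter window of 1 member is not reported here. Python 3.11.15 with matplotlib 3.10.9 drew the figures.

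The JAZ members and pathway lists were chosen with earlier results of these data known. All members are named, along with up to 4 genes of a list with the lowest p in a comparison, COI1, NINJA, MYC2, LOX3 and JAR1, and the 6 genes most like the family. The other settings tried were median-ratio scaling, a pseudocount of 0.1, all genes unfiltered, a replicate block, eBayes without a trend, the 2 groups alone, sequencing pool as a covariate or pool 1 alone, leaving out each library and, added after seeing the data, subtraction of a length and GC trend (lowess, span 0.3, 26703 genes with a length) and WT replicate 2 as the only control.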

Additional observations from a re-analysis of the deposited data

Results flagged for a closer look

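Of the 9 JAZ genes tested, 4 showed a difference between ACC and KMBA plants that itself differed between roots and shoots in the interaction test. Over all 18357 genes, 2.93% were higher and 7.4% lower in this test. With a pseudocount of 0.1 the number of JAZ genes was 1, and without the expression filter it was 2. The values are ACC minus KMBA in roots less the same in shoots on the log2 scale. JAZ1 was at -1.46 (adjusted p = 0.00248), from 1.09 in shoots and -0.37 in roots in the fits of each organ. JAZ5 was at -0.652 (adjusted p = 0.048), from 0.24 in shoots and -0.42 in roots. JAZ6 was at 0.902 (adjusted p = 0.0378), from -0.72 in shoots and 0.18 in roots. JAZ7 was at 0.778 (adjusted p = 0.0236), from -0.96 in shoots and -0.19 in roots. The calls of JAZ5, JAZ6 and JAZ7 were lost in 10, 7 and 4 of 12 fits with 1 library left out. Each root group was in a sequencing pool of its own, so pool and compound cannot be told apart for the root values. Groups held 3 libraries each, too few for a test of single outlying libraries.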

How the results depend on the processing

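Of 1317 member values under the alternatives, 1254 kept their side of the threshold, 46 were no longer past it and 17 were newly past it. Among values past the threshold in either fit, 0 changed direction. Values past it in neither fit could change direction and were not counted. For example, JAZ10 in SA187 against WT went from log2 0.235 to as low as -0.154 with 1 library left out. With a pseudocount of 0.1, 4 members were called in roots against shoots with ACC in place of 2. There were 3 in ACC against KMBA shoots in place of 2, and 1 in the interaction in place of 4. Over all genes the calls of these 3 comparisons went from 6718 to 8330, from 125 to 182 and from 1895 to 1331. Without a filter 1 was called in ACC against KMBA shoots and 2 in the interaction, beside 84 and 1985 of all genes. Median-ratio scaling gave 4 in roots against shoots with ACC and 3 in ACC against KMBA shoots, beside 6196 and 127 of all genes. Subtraction of the length and GC trend gave 4 in roots against shoots with ACC, beside 6074 of all genes. Pool 1 alone left 1 ACC library, so its member count in ACC against KMBA shoots is not given. The cause of these shifts was not tested. Leaving out 1 library gave 0 to 1 calls for SA187 against WT, 0 to 1 for KMBA against SA187, 2 to 4 for ACC against SA187, 0 to 2 for ACC against KMBA shoots and 1 to 4 for the interaction. The 3 members lower with KMBA and the 3 lower with ACC against WT were counted again in every such fit.

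The replicate block changed no member's call: 0, 3 and 3 members were called against WT with SA187, KMBA and ACC, 0 in KMBA against SA187, 4 in ACC against SA187, 2 in ACC against KMBA shoots, 0 in roots, 2 and 5 in roots against shoots with ACC and KMBA, and 4 in the interaction. Same-numbered libraries deviated together at r from -0.17 to 0.34, and a library correlated best with its own number in 20 of 42 pairings, so the numbers were not taken to pair the samples. Over all genes, the calls against WT shifted from 37 higher and 217 lower to 60 and 143 with SA187 and from 103 and 382 to 139 and 227 with KMBA once the trend with length and GC was taken out. Against SA187, median-ratio scaling moved the ACC calls from 164 higher and 115 lower to 122 and 168. The interaction calls over all genes shifted from 537 higher and 1358 lower to 738 and 1099 when that length and GC trend was removed. With WT replicate 2 as the only control the calls against WT were 8 and 10 with SA187, 18 and 42 with KMBA and 303 and 253 with ACC. All-gene totals also moved by over 1.5 times elsewhere. SA187 against WT went from 254 to 140 without a filter, 10 with the 2 groups alone and 52 in pool 1. KMBA against WT went from 485 to 778 with a pseudocount of 0.1, 292 with the 2 groups alone and 87 in pool 1. With a pseudocount of 0.1, ACC against WT went from 769 to 1299, ACC against SA187 from 279 to 443 and the root comparison from 216 to 391. In pool 1 ACC against SA187 gave 142 and ACC against KMBA 0 in place of 125. Low members are limited most: at about 1 FPKM, as for JAZ8 and for JAZ5, JAZ9 and JAZ10 in roots, the added pseudocount compresses differences.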
